A study of Mus musculus with 6 samples.

Results

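Genes of the secondary and later neutrophil granules were compared between knockout (KO) and wildtype mice in articular cartilage. The members were the rows of the gene table whose name was Ltf, Camp, Ngp, Lcn2, Chil3, Cd177, Itgb2l, Hp, Ltb4r1 or Padi4, that is 10 of 34709 genes, and all 10 were found and tested. They were higher in the KO group in all 10 cases, by 0.67 to 1.02 on the log2 scale, but 0 passed the adjusted threshold in the fit of 5 samples. The level of 9 of the 10 was above every wildtype library in every KO library, which held for 11.3% of all tested genes.

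Neutrophils are made in the bone marrow and store their weapons in granules that are filled in a fixed order. Primary (azurophil) granules, with myeloperoxidase and serine proteases, are filled at the promyelocyte stage. Secondary (specific) granules, with lactoferrin, cathelicidin and lipocalin, are filled from the myelocyte stage onward, and gelatinase granules and secretory vesicles follow. Because a granule protein is transcribed while its granule is being filled, mRNA of these genes is known mainly from maturing cells in the marrow, less from neutrophils in blood or tissue. The transcription factor C/EBPε is required for the secondary granule genes.

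The 6 libraries were labelled cartilage, 3 with the KO genotype and 3 with the wildtype (WT) genotype. Per the study's methods the mice were male, with littermates in its ageing model. The study states that the sequenced KO and wildtype cartilage came from mice of the same age, that of its aged group. The sample titles themselves gave no age. Nor did the titles say whether each library came from a different animal. The study states in general that its experiments used independent samples, without naming the animals behind these libraries. The p-values therefore measure only the spread between these samples, which may be technical. KO replicates 2 and 3 differed far less than any other pair of libraries and were averaged and counted as 1 sample, which left 2 KO and 3 wildtype samples. The squared difference of 2 libraries' scaled counts was divided by that of counting noise, and the median over genes with a mean of at least 1000 counts, relative to its value under counting noise alone, was 5.87 for this pair and 35.4 to 152.7 for the other 14 pairs. Total counts ranged from 52268311 to 63331135 per library.

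The tissue label was checked against defining markers. Of 10 chondrocyte markers, 7 had a mean of at least 0.5 FPKM (fragments per kilobase of transcript, scaled to library depth), with Prg4 at 402 to 1034 FPKM, Comp at 41.0 to 109 FPKM and Acan at 13.2 to 22.8 FPKM. Col2a1 was at 12.4 to 21.3 FPKM and Hapln1 at 6.12 to 14.3 FPKM. Sox9, at 0.865 to 2.81 FPKM, and Cnmd, at 0.755 to 1.62 FPKM, were low. Matn1, Matn3 and Col9a1 stayed below 0.5 FPKM in all libraries. All 10 neutrophil markers were present in all libraries, with S100a9, a subunit of calprotectin, at 11637 to 27817 FPKM. In bulk tissue, fewer cells of a type and less RNA per cell cannot be told apart, and this holds for each value below.

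The levels of the members spanned a wide range. By mean FPKM over the 6 libraries, Ngp ranked 8 among all genes of the file, Camp 11, Chil3 23, Ltf 33, Lcn2 37, Hp 62, Cd177 146, Itgb2l 802, Ltb4r1 915 and Padi4 1770. The order from Ngp through Camp to Chil3 was the same in each library, as were the places of Hp, Cd177 and Padi4. Ltf and Lcn2 changed places between libraries, as did Itgb2l and Ltb4r1, so the order of these neighbours was not the same in every library. Whether they differed in level was not tested. Together the 10 genes took 4.33%, 4.92% and 4.93% of the summed FPKM in KO replicates 1, 2 and 3, against 2.38%, 3.06% and 2.32% in wildtype replicates 1, 2 and 3. Camp and Ngp made up 62.9% to 71.6% of that sum.

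**Figure D1:**
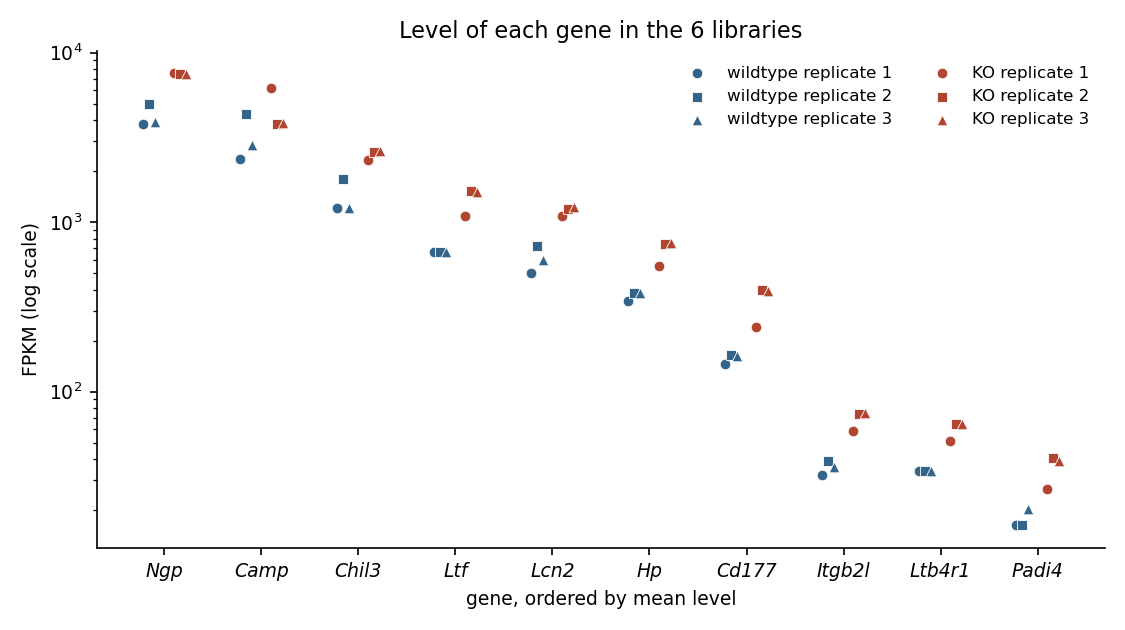
FPKM (log scale) of the 10 genes, ordered by mean level, in the 3 wildtype (blue) and 3 KO (red) libraries, with 1 symbol per replicate. In 9 genes all KO libraries lie above all wildtype libraries (11.3% of all tested genes), and in Camp wildtype replicate 2 lies above KO replicates 2 and 3.

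Ltf, Ngp and Camp lie on chromosome 9 (GRCm38), spread over 1195 kb with a gap of 570 kb between Camp and Ngp and of 596 kb between Ngp and Ltf. The table held 49 genes in this stretch. Of the 17 other tested genes there, 9 were higher in KO, with a median log2 difference of 0.12 and a range from -0.41 to 0.98. In the higher direction 3 had an unadjusted p-value under 0.05, against 7.63% of all tested genes. The promoters of these 3 genes and of Lcn2 are shown because the 4 encode the classical content of secondary granules. The windows run from 250 bases before to 50 bases after the start site, 5′ to 3′ in the direction of the gene, and are taken from RefSeq (GRCm38.p6), which gave a promoter for 9 of the 10 members (all but Hp). They lie at chr9:111019042-111019341 (Ltf, plus strand), chr9:110419558-110419857 (Ngp, plus strand), chr2:32387690-32387989 (Lcn2, minus strand) and chr9:109849407-109849706 (Camp, minus strand). Capitals mark matches, on either strand, to a C/EBP-like motif, TTNNGNAA.
Ltf: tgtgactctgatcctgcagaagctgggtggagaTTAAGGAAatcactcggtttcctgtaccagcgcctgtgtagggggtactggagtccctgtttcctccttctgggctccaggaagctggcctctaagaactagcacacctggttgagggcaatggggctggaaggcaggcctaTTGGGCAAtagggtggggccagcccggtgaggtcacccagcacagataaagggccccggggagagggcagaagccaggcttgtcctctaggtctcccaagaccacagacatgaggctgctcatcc
Ngp: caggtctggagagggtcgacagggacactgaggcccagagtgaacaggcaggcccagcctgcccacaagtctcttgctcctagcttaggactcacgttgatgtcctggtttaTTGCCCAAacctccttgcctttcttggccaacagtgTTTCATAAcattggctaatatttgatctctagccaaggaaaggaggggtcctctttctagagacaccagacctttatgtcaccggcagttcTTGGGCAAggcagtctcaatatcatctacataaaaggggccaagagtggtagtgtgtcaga
Lcn2: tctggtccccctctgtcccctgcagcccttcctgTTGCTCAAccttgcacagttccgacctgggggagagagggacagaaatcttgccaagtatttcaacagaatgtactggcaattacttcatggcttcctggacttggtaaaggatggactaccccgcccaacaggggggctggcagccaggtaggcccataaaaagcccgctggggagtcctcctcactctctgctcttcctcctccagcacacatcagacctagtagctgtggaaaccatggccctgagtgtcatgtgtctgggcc
Camp: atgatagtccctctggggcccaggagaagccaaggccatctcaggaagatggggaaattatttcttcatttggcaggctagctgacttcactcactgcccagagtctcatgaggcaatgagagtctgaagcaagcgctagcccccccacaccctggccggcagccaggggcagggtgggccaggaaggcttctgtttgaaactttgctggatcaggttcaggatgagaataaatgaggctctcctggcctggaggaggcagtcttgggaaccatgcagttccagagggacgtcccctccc

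The C/EBP-like letters were found in 6 of the 9 promoters (Ltf, Ngp, Lcn2, Chil3, Cd177 and Itgb2l), and in 40.7% of all 32851 promoters of the same length. Ngp and Chil3 had 3 matches each, Ltf 2 and the others 1. Camp, Ltb4r1 and Padi4 had no match in this window. A PU.1-like motif, GAGGAA, was found in 5 of the 9 (28.3% of all promoters), and the letters TATAAA in 3 of the 9 (13.6% of all promoters). None of these matches overlapped with one of another motif in the 9 promoters. A match is a string of letters and was not measured as a binding site here.

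Among the proteins that bind iron or its carriers, lactoferrin (Ltf) sequesters free iron from microbes. Ltf (chromosome 9, 111019271 to 111042767) was at 1089.7, 1529 and 1514 FPKM in KO replicates 1, 2 and 3, and at 668, 666 and 664 FPKM in wildtype replicates 1, 2 and 3. The groups did not overlap, and the wildtype libraries were nearly equal while KO replicate 1 was the lowest of the KO libraries. The group levels were 1306 ± 305 FPKM (SD, n = 2) and 666 ± 2.05 FPKM (SD, n = 3). The log2 difference was 0.98 (SE 0.270, 95% confidence interval 0.35 to 1.62), with an adjusted p-value of 0.200 by edgeR.

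Lcn2, lipocalin 2, binds bacterial siderophores (iron carriers). Lcn2 (chromosome 2, 32384633 to 32387797) was at 1091, 1204 and 1222 FPKM in the KO libraries and at 499, 721 and 600.4 FPKM in the wildtype libraries, in the order of the replicates. Here KO replicate 1 was close to the other KO libraries, and wildtype replicate 2 was the highest of its group. KO minus wildtype, on the log2 scale, was 0.94 (SE 0.271, 95% confidence interval 0.30 to 1.57), with an adjusted p-value of 0.214 by edgeR.

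Hp, haptoglobin, captures free hemoglobin, and neutrophils store it in their specific granules. Hp (chromosome 8, 109575128 to 109579172) was at 551, 745 and 751 FPKM in KO and at 345, 382 and 381 FPKM in wildtype. The lowest KO library, replicate 1, was above the highest wildtype library. On the log2 scale KO exceeded wildtype by 0.82 (SE 0.194, 95% confidence interval 0.37 to 1.28), with an adjusted p-value of 0.173 by edgeR. Of the genes on the receiving side of haptoglobin, the scavenger receptor Cd163 was lower in KO (log2 difference -0.73, SE 0.184, adjusted p-value 0.182 by edgeR), and so was the heme-degrading enzyme Hmox1 (-0.75, SE 0.199, adjusted p-value 0.190). In this list of partners (Hpx, Cd163, Hmox1, Slc22a17, Lrp2, Slc40a1 and Tfrc) 5 of 7 genes were tested and all 5 were lower, 2 of them at an unadjusted p-value under 0.05. Among all 15373 tested genes 8065 were lower, 933 of them at an unadjusted p-value under 0.05 by edgeR.

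The antimicrobial members were the most abundant. Ngp, neutrophilic granule protein, is related to the cathelicidins. Ngp (chromosome 9, 110419747 to 110423012) was at 7546, 7464 and 7513 FPKM in KO and at 3803, 4997 and 3881 FPKM in wildtype. The KO libraries were nearly equal here and all above wildtype. The log2 difference was 0.85 (SE 0.350, 95% confidence interval 0.02 to 1.67), with an adjusted p-value of 0.354 by edgeR.

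Camp, the precursor of the mouse cathelicidin peptide, was the exception among the 10. Camp (chromosome 9, 109847379 to 109849617) was at 6175, 3807 and 3863 FPKM in KO replicates 1, 2 and 3, and at 2369, 4365 and 2849 FPKM in wildtype replicates 1, 2 and 3. The groups overlapped, since wildtype replicate 2 was above KO replicates 2 and 3, and KO replicate 1 was the highest library. Its log2 difference of 0.67 (SE 0.397, 95% confidence interval -0.27 to 1.61) had an adjusted p-value of 0.543 by edgeR. It came to 0.22 with KO replicate 1 left out and stood at 1.02 with KO replicates 2 and 3 left out, so this value rested on which KO sample was taken. The ratio of Camp to Ngp, per length, was 0.818, 0.510 and 0.514 in the KO libraries and 0.623, 0.874 and 0.734 in the wildtype libraries.

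Chil3 encodes Ym1, a chitinase-like lectin without chitinase activity. Chil3 (chromosome 3, 106147554 to 106167564) was at 2329, 2593 and 2644 FPKM in KO and at 1206, 1800 and 1208 FPKM in wildtype. The groups did not overlap, and wildtype replicate 2 was again the highest of its group. Chil3 had a log2 difference of 0.83 (SE 0.311, 95% confidence interval 0.09 to 1.56), with an adjusted p-value of 0.310 by edgeR. Chil4 is a near copy, so counts may have been split between the pair, but it was at 0.515 to 3.60 FPKM only. In the chitinase-like family, Chil3 itself included, 5 of 7 genes were tested and all 5 were higher in KO, as were 7308 of all 15373 tested genes. Chil5 was at 0.95 (SE 0.206, adjusted p-value 0.166 by edgeR) and Chit1, an active chitinase, at 1.19 (SE 0.310, adjusted p-value 0.186).

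The surface members come next. Cd177 is a membrane-anchored glycoprotein of specific granules and the cell surface that associates with the integrin Mac-1. Cd177 (chromosome 7, 24743983 to 24760311) was at 240.1, 397 and 393 FPKM in KO and at 145, 164 and 162 FPKM in wildtype. KO replicate 1 lay between the wildtype libraries and the other KO libraries. Its log2 difference, 1.02 (SE 0.223, 95% confidence interval 0.50 to 1.55), was the largest of the 10, at an adjusted p-value of 0.168 by edgeR.

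Itgb2l, an integrin β2-like protein, is known from maturing neutrophils. Itgb2l (chromosome 16, 96422288 to 96443619) was at 58.6, 73.8 and 74.8 FPKM in KO and at 32.4, 39.0 and 36.1 FPKM in wildtype. For Itgb2l the log2 difference was 0.90 (SE 0.158, 95% confidence interval 0.53 to 1.27), with an adjusted p-value of 0.166 by edgeR. Of the 10 members it was the only one that overlapped with another gene of the table, Gm49948 on the opposite strand, which had at most 3 counts in a library. Its paralog Itgb2, the common β chain of the leukocyte integrins, had a log2 difference of 0.74 and its partner Itgam, the α chain of Mac-1, of 0.99.

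Ltb4r1, the high-affinity receptor for the chemoattractant leukotriene B4, had the smallest unadjusted p-value of the 10 (0.000419 by edgeR). Ltb4r1 (chromosome 14, 55765962 to 55768494) was at 51.0, 64.9 and 64.2 FPKM in KO and at 34.1 FPKM in each wildtype library. The log2 difference was 0.77 (SE 0.125, 95% confidence interval 0.48 to 1.07), with an adjusted p-value of 0.166. The enzymes that make its ligand were higher in KO too. These were Alox5, which starts leukotriene synthesis (log2 difference 0.80), its activating protein Alox5ap (0.87) and Lta4h, which makes leukotriene B4 itself (0.74). Ltc4s, which leads to the cysteinyl leukotrienes instead, had a log2 difference of -0.87 (SE 0.505), and the second receptor Ltb4r2 of -0.08. Of the 8 genes of this list, 6 were higher and 5 of them had an unadjusted p-value under 0.05, against 7.63% of all tested genes. These counts include Ltb4r1 itself.

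Padi4 converts arginine to citrulline in histones, a step in the release of neutrophil extracellular traps. Padi4 (chromosome 4, 140745865 to 140774236) was at 26.7, 40.4 and 39.0 FPKM in KO and at 16.4, 16.3 and 20.3 FPKM in wildtype. The lowest KO library was above the highest wildtype library. Padi4 thus differed by 0.92 on the log2 scale (SE 0.176, 95% confidence interval 0.50 to 1.33), with an adjusted p-value of 0.166 by edgeR. Of the other deiminases, Padi2 was at 3.94 to 5.84 FPKM with a log2 difference of 0.02, and Padi1, Padi3 and Padi6 were below 0.5 FPKM in all libraries.

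The counts were read against those of all genes. In the fit of 5 samples 0 of the 10 members passed an adjusted p-value of 0.05 by edgeR, as did 0% of the 15373 tested genes. At an unadjusted p-value under 0.05, 9 of the 10 were higher in KO (all but Camp), against 7.63% of all tested genes. The FPKM ranges did not overlap, with KO higher, for 9 of the 10 and for 11.3% of all tested genes. When the 6 libraries were fitted as labelled, 6 of the 10 passed the adjusted threshold (Ltf, Cd177, Itgb2l, Hp, Ltb4r1 and Padi4), against 2.46% of the tested genes in that direction. That fit gives full weight to both of the near-identical KO libraries. With DESeq2 on the 5 samples 9 of the 10 passed (all but Camp), against 3.44% of the tested genes. The median log2 difference of the members was 0.87, and that of all tested genes was -0.02. The members were listed with earlier results of these data known, so these counts describe them and are no independent evidence.

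**Figure D2:**
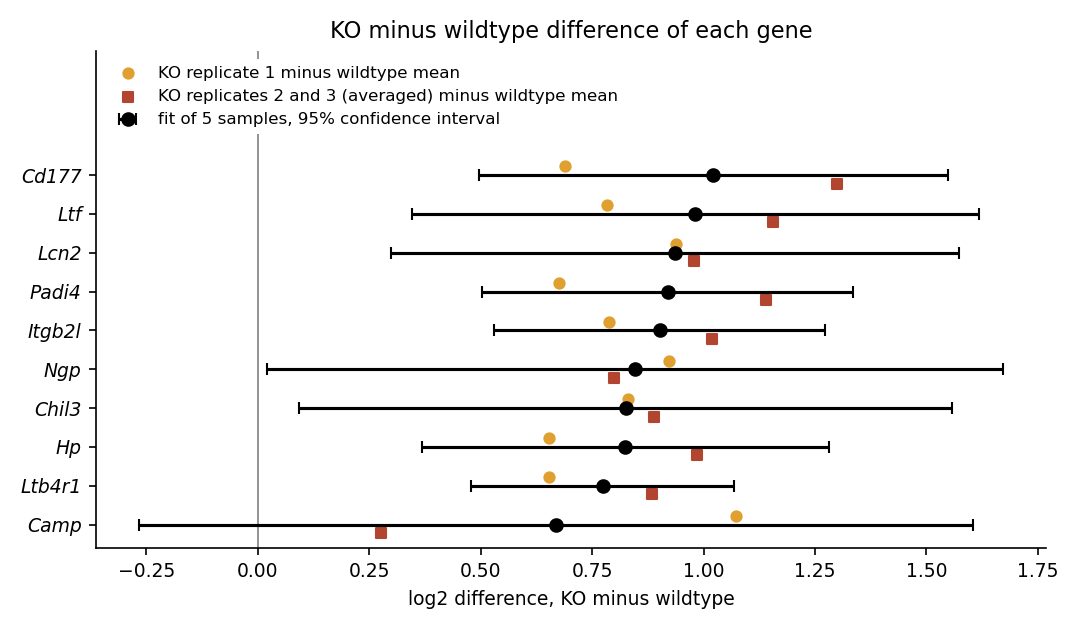
Log2 difference (KO minus wildtype) of each gene in the fit of 5 samples (black points, bars are 95% confidence intervals), with the difference of KO replicate 1 alone (orange) and of the averaged KO replicates 2 and 3 (red) from the wildtype mean. The interval spans 0 only for Camp, where the KO samples lie farthest apart.

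Both KO samples were above the wildtype mean for all 10 genes, but in a different order. On log2 counts scaled to library size (CPM), KO replicates 2 and 3 (averaged) exceeded KO replicate 1 by 0.61 for Cd177, 0.46 for Padi4, 0.37 for Ltf, 0.33 for Hp, 0.23 for Itgb2l and Ltb4r1, 0.06 for Chil3 and 0.04 for Lcn2. For Ngp the difference was -0.12 and for Camp it was -0.80. The members' transcripts differ in length, from 758 bases (Camp) and 915 bases (Lcn2) to 2714 bases (Cd177), 2743 bases (Ltf) and 2806 bases (Itgb2l) in the GENCODE annotation. Over all tested genes the same difference between the KO samples moved with transcript length. Its median was -0.32 for 2744 genes under 1000 bases, -0.14 for 3083 genes from 1000 to under 2000 bases, 0.02 for 5366 genes from 2000 to under 4000 bases and 0.22 for 4162 longer genes. Wildtype replicate 2, compared with the mean of the other two wildtype libraries, had medians of 0.25, 0.11, -0.02 and -0.13 in these classes, and was higher by 0.83 for Camp, 0.66 for Chil3, 0.48 for Lcn2 and 0.46 for Ngp. The median of the KO minus wildtype difference itself was between -0.04 and -0.01 in all 4 classes. When the trend with length was removed from each library, a step added after seeing the data, all 10 members were higher in KO by 0.68 (Camp) to 1.03 (Cd177), with adjusted p-values from 0.104 to 0.334 by edgeR. Its part in the order of the libraries was not tested otherwise.

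**Figure D3:**
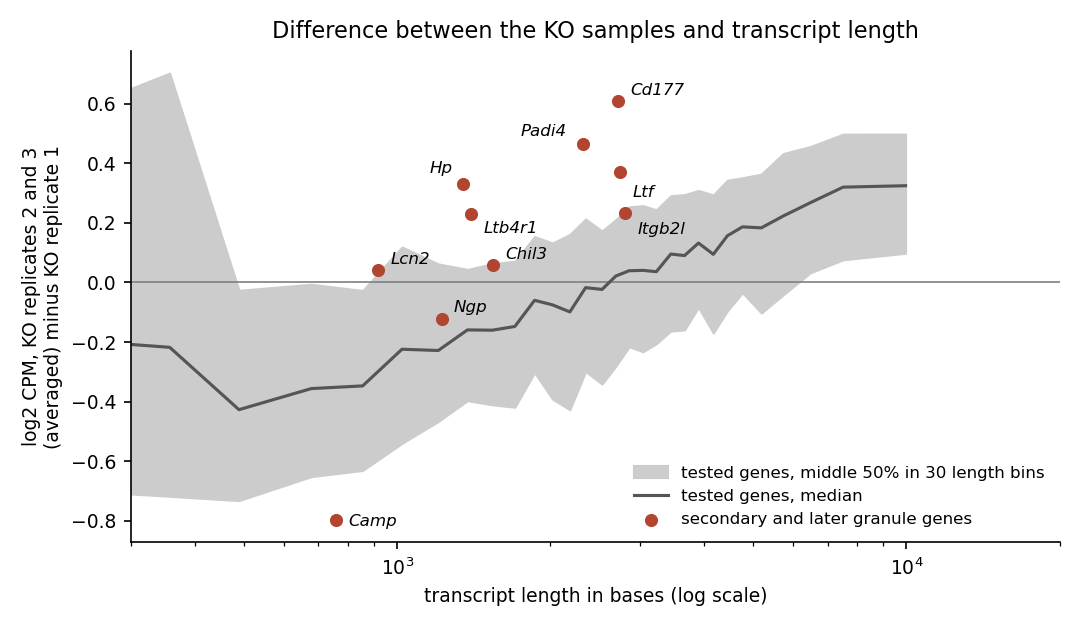
Difference on log2 CPM between the averaged KO replicates 2 and 3 and KO replicate 1, against transcript length in bases (log scale), for the 10 genes (red) and all tested genes (line, median; band, middle 50% in 30 length bins). Camp lies lowest at -0.80 and Cd177 highest at 0.61, and the median of all genes goes from below 0 for short to above 0 for long transcripts.

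The other granule genes were then considered by stage, with lists drawn up from their known roles. Of the primary granule list, 11 of 12 genes were tested, 10 were higher in KO and 7 had an unadjusted p-value under 0.05, with a median log2 difference of 0.77. Prtn3 (proteinase 3) was at 1.15 (SE 0.249, adjusted p-value 0.166 by edgeR) and Elane (neutrophil elastase) at 0.87 (SE 0.211, adjusted p-value 0.175). Of the other specific and gelatinase granule genes, 15 of 17 were higher, 9 at an unadjusted p-value under 0.05, and the median was 0.65. Pglyrp1, a peptidoglycan-binding protein, was at 0.89 (SE 0.167) and Mmp25, a membrane-bound metalloproteinase, at 0.96 (SE 0.199), whereas Olfm4 was at 0.02 (SE 0.285) and the gelatinase Mmp9 at 0.40 (SE 0.260). Of the secretory vesicle and mature surface genes, 12 of 14 were higher, 10 at an unadjusted p-value under 0.05, with a median of 0.72 and with the formyl peptide receptors Fpr1 and Fpr2 at 0.77 (SE 0.154) and 0.83 (SE 0.188). In each of these 3 lists 0 genes passed the adjusted threshold by edgeR on the 5 samples, and 2, 7 and 8 passed it, all higher in KO, with the 6 libraries as labelled. Of all tested genes, 7.63% were higher at an unadjusted p-value under 0.05 by edgeR on the 5 samples. With the 6 libraries as labelled, 2.46% passed the adjusted threshold in that direction. The difference between the members and these lists was not tested.

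Regulators of the granule programme were higher as well in 8 of 9 tested cases, 7 at an unadjusted p-value under 0.05, against 7.63% of all tested genes. Cebpe, which encodes C/EBPε, was at 86.9, 87.8 and 82.2 FPKM in KO and at 42.8, 57.8 and 46.5 FPKM in wildtype. KO exceeded wildtype by 0.82 on the log2 scale (SE 0.173), and edgeR gave an adjusted p-value of 0.166. For Spi1, which encodes PU.1, it was 0.73 (SE 0.145, adjusted p-value 0.166). The log2 difference was 0.05 for Cebpa and -0.01 for Runx1. Among these genes Cebpb stood apart, with 26.8 FPKM in KO replicate 1 against 9.39 and 4.62 FPKM in KO replicates 2 and 3.

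The profile of the members over the 5 samples was compared with that of every other gene with a mean of at least 5 FPKM, by the root mean square difference of log2 CPM set to 0 at the wildtype mean. The 5 nearest were Gm9733 (0.052), Pglyrp1 (0.061), Plaur, the urokinase receptor (0.062), Ly6c2, a surface antigen of monocytes and granulocyte precursors (0.062), and Lpcat4, a lysophospholipid acyltransferase (0.066). Their log2 differences lay between 0.78 and 0.89, near those of the members because the genes were chosen by that profile.

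**Figure D4:**
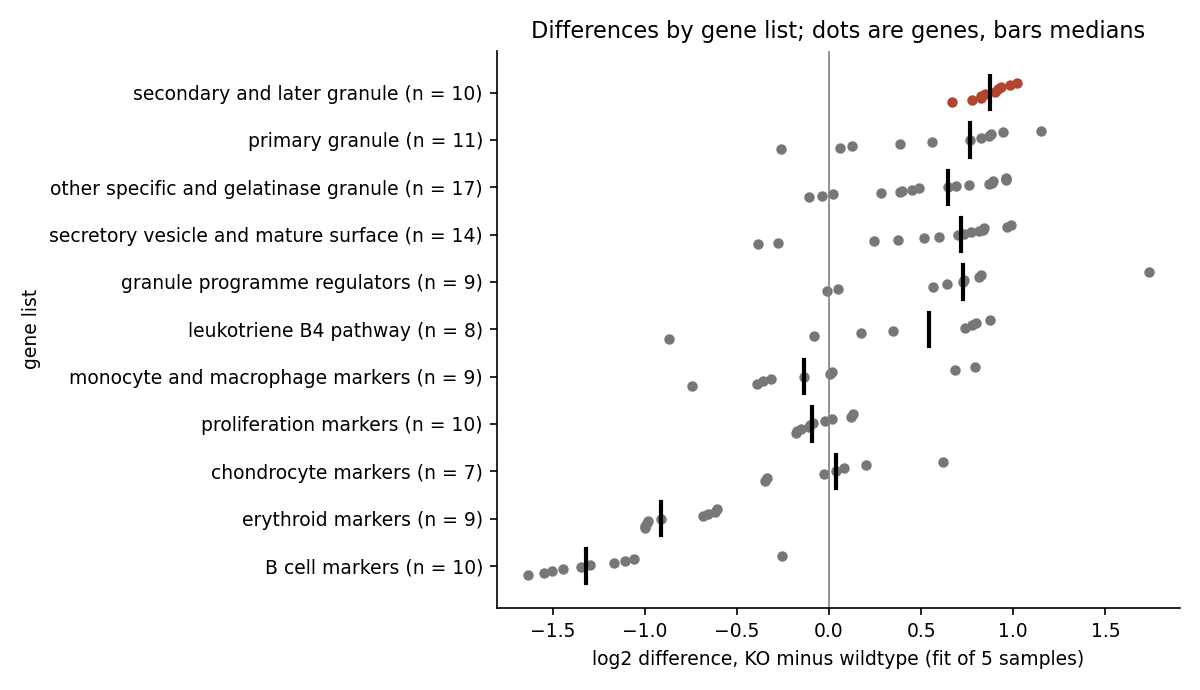
Log2 difference (KO minus wildtype, fit of 5 samples) of each tested gene (dots) by list, with the median of each list (bar). The secondary and later granule genes (red) lie between 0.67 and 1.02, the other neutrophil lists scatter more widely, and all tested erythroid and B cell markers lie below 0.

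Markers of cell types were read beside the members, and their direction differed between cell types. All 10 neutrophil markers were higher in KO, 6 at an unadjusted p-value under 0.05, and their summed level was 28245 to 35613 CPM in KO libraries and 14963 to 25000 CPM in wildtype libraries. Most of them were already counted above, so the lists are not separate. Mmp8, Mmp9 and Retnlg were also in the specific and gelatinase granule list. Ly6g, Cxcr2, Csf3r, Itgam and Itgb2 were in the secretory vesicle and mature surface list, and Csf3r was among the regulators too. Of all 15373 tested genes, 7308 were higher in KO, 1173 of them at an unadjusted p-value under 0.05 by edgeR. The other 8065 were lower, 933 of them at an unadjusted p-value under 0.05 by edgeR. All 10 B cell markers were lower, 9 at an unadjusted p-value under 0.05, with a median log2 difference of -1.32. Their summed level was 1731 to 2276 CPM in KO and 2624 to 2940 CPM in wildtype. That sum mostly follows Ighm, the most abundant of them (607 to 1060 FPKM), whose log2 difference was only -0.26. All 9 tested erythroid markers were lower, 4 at an unadjusted p-value under 0.05 (21969 to 55810 CPM in KO and 61032 to 94342 CPM in wildtype), with the higher KO value in replicate 1. All 7 tested adipocyte markers were lower, 7 at an unadjusted p-value under 0.05 (97.2 to 222 CPM in KO and 314 to 709 CPM in wildtype). KO replicate 1 also stood apart from the other KO libraries in skeletal muscle markers (432 CPM against 7.99 and 7.14 CPM) and in chondrocyte markers (6152 CPM against 2476 and 2503 CPM), of which 0 passed an unadjusted p-value of 0.05 between KO and wildtype. Of 10 T and NK cell markers 9 were lower, 4 of them at an unadjusted p-value under 0.05, and 1 was higher, also at an unadjusted p-value under 0.05 (153 to 162 CPM in KO and 148 to 173 CPM in wildtype). The higher one was Nkg7 (log2 difference 0.57), the most abundant of them at 52.8 to 100 FPKM, whereas the list median was -0.53. All 10 osteoblast markers were lower, 0 of them at an unadjusted p-value under 0.05 (3198 to 5823 CPM in KO and 2980 to 10344 CPM in wildtype). The 9 tested skeletal muscle markers were lower as well, 0 of them at an unadjusted p-value under 0.05 (7.14 to 432 CPM in KO and 86.6 to 826 CPM in wildtype). Monocyte and macrophage markers were split, with 4 higher and 5 lower, and 10 proliferation markers had a median log2 difference of -0.09. No B cell, erythroid or neutrophil marker was at 0 in any library. The mean log2 CPM of the members exceeded that of the neutrophil markers by 0.37, 0.28 and 0.26 in KO replicates 1, 2 and 3 and by 0.18, 0.25 and 0.20 in wildtype replicates 1, 2 and 3. Over the primary granule genes Mpo, Elane, Prtn3 and Ctsg the excess was 0.92, 0.56 and 0.58 in KO and 0.89, 0.73 and 0.87 in wildtype, so there KO replicates 2 and 3 lay below all wildtype libraries and KO replicate 1 above them. Neither difference was tested. The part of these markers in the members' differences was not tested.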

How the data were processed

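Articular cartilage libraries of KO and wildtype mice were profiled by poly(A) RNA-seq on 3 libraries per group, with groups and replicate numbers from the sample titles. The authors deposited 1 table with FPKM values, scaled within each library, and estimated counts for each gene, whole numbers whose low values pile up at 4, so that a count need not be 1 fragment. The submitters' processing notes name cutadapt 1.9, HISAT2 2.0.4, UMI-tools, StringTie 1.3.4d, DESeq2 and edgeR, without their roles, and the genome build is not given in the sources used here. Gene positions matched GRCm38 (GENCODE M21) for the members. Every column of values was tied to its sample by title, and 0 were left unused. Values of the targeted gene are not reported here.

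KO replicates 2 and 3 were averaged (counts rounded). Genes averaging 0.5 FPKM or more were fitted on their counts with edgeR 4.0.16 (quasi-likelihood, TMM scaling, R 4.3.3) and p-values adjusted by Benjamini-Hochberg over 15373 genes, with calls under 0.05. SE was derived from the F statistic. Log2 CPM used a prior count of 2. Transcript length is that of the longest basic transcript. Alternatives were limma 3.58.1 on log2(FPKM + 1) and log2(FPKM + 0.1), DESeq2 1.42.0, other scalings, filters and sample sets. The pipeline was tested on simulated data. Counting error is small at this depth. Members and lists were chosen with earlier results of these data known. Named were all members, the 2 genes of each pathway list ranking first by unadjusted p-value (none being called), the 5 nearest profiles and defining markers. Any further gene was picked after its values were seen.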

Additional observations from a re-analysis of the deposited data

How the results depend on the processing

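All 10 members had a positive log2 difference under all 18 alternatives, but the number that passed the adjusted threshold moved. It was 0 in the fit of 5 samples, 6 with the 6 libraries as labelled and 9 with DESeq2, against 0, 570 and 880 genes in all. Without KO replicate 1, 4 members (Cd177, Itgb2l, Ltb4r1 and Padi4) and 352 genes passed, with the lone KO sample assumed to vary like wildtype, and over the fits that each left out 1 library the counts ranged from 0 to 4 members and from 0 to 352 genes. Without KO replicates 2 and 3 (9 genes) and with no filter (21 genes) 0 members passed, with 8 and 9 of them at an unadjusted p-value under 0.05. The replicate block on the 6 libraries gave 0 genes and 0 members, 9 of them at an unadjusted p-value under 0.05. Replicate numbers did not pair the libraries (deviations of libraries with the same number had correlations across genes of -0.14, -0.11 and -0.06 for replicates 1, 2 and 3), and no library correlated best with its own number. The cause of the difference between tools was not tested. Over all alternatives the log2 difference ranged from 0.22 to 1.02 for Camp, from 0.69 to 1.29 for Cd177 and from 0.66 to 0.88 for Ltb4r1. With 2 KO samples, the spread of that group is poorly known.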

Other observations

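Eosinophils store other proteins in their granules. Of 10 eosinophil and basophil markers 3 were higher and 7 lower in KO, and 0 passed the adjusted threshold by edgeR, with 1 at an unadjusted p-value under 0.05. That gene was Ccr3, the eotaxin receptor, with a log2 difference of -0.87 and an adjusted p-value of 0.199. Of all 15373 tested genes, 933 were lower at an unadjusted p-value under 0.05 by edgeR. Prg2, the major basic protein of eosinophil granules, was at 812, 707 and 729 FPKM in KO replicates 1, 2 and 3 and at 406, 832 and 678 FPKM in wildtype replicates 1, 2 and 3, so the groups overlapped. Epx, eosinophil peroxidase, was at 37.4 to 40.7 FPKM in KO and at 20.4 to 32.5 FPKM in wildtype, without overlap, with a log2 difference of 0.49 (adjusted p-value 0.386 by edgeR). Whether the eosinophil and neutrophil granule genes differed from each other was not tested.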
